A study of Mus musculus with 9 samples.

Results

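The 10 genes described here are the X-linked pair targeted in these mice and 8 protein-coding genes that lie beside it, out of 56691 genes in the count table. They were taken by name: 8030474K03Rik, which is the annotation's symbol for Gm1142, Gm4779, Ogt, Taf1, Itgb1bp2, Nono, Zmym3, Nlgn3, Med12 and Snx12. All 10 had enough reads to be among the 17251 genes tested.

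Messenger RNA was captured with oligo(dT) beads from mouse testes on postnatal day 7 and sequenced as 9 libraries in 3 groups of 3. The groups are a double knockout of Gm4779 and Gm1142 (Gm4779-/- Gm1142-/-, DKO), a knockout of Gm1142 alone (Gm1142 KO) and wild type (WT). The kind of allele, the strain and whether a library came from 1 animal or a pool are not given in the sources used here, and no treatment is named. Nothing states that the replicates are separate animals, so the spread behind every p-value is that between these libraries and may be technical.

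In males, X-linked genes are carried as a single copy, and in spermatocytes the X chromosome is silenced during meiosis. At the age studied the cords hold mainly immature Sertoli cells and spermatogonia, with the first germ cells approaching meiosis. Genes placed head to head, with start sites close together on opposite strands, can share the promoter sequence between them. The 8 genes beside the pair serve general steps of gene expression and cell organisation in many tissues, apart from Nlgn3, best known from neurons, and Itgb1bp2, best known from muscle.

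In the GRCm38 annotation (GENCODE M21), Gm4779 (ENSMUSG00000045010.15) is at chrX:101790053-101794423 on the minus strand, and 8030474K03Rik (ENSMUSG00000046774.18) is at chrX:101794656-101798642 on the plus strand. The pair is thus head to head, with 232 bases between the annotated genes. The submitters counted on build mm39, so these positions describe the reference and not the count table. The stretch between the RefSeq start sites of the pair, chrX:101794446-101794655 (GRCm38.p6, plus strand, 210 bases), is shown because both genes start at its ends. Capitals mark its longest perfect palindrome, of 16 bases, and 2 CCAAT boxes, the first of which reads ATTGG on the strand shown.

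Gm4779 to 8030474K03Rik: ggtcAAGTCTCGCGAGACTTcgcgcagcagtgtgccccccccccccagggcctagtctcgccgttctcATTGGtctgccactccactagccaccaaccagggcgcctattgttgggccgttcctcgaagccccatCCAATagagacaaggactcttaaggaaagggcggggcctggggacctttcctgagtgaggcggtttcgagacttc

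The Gm4779 start is at the left end of this stretch and the 8030474K03Rik start is at the right end. Motifs were searched on both strands, and shares refer to 32817 RefSeq promoter windows cut to the same length. The palindrome AAGTCTCGCGAGACTT begins at position 5, counted from the left, and was present in 2 windows, which are those of the pair itself. It was picked from this stretch, which both windows contain, so that count cannot show how rare it is. Its inner 10 bases, TCTCGCGAGA, begin at position 8 and were present in 0.378% of windows. CCAAT begins at positions 69 and 136 and was present in 30.3% of windows. GGGCGG, a GC box, begins at position 164 and was present in 31.4%. TATAAA had no match here and was present in 10.5%. Apart from the palindrome and its inner bases, no matches overlapped. The stretch holds 12 CpG sites and 61.4% G and C, against a median of 5 sites and 52.9% over all windows. Fewer CpG sites than in this stretch were found in 69.7% of windows. Promoter windows were at hand for 8 of the 10 genes. TCTCGCGAGA was found in those of the pair and in none of the other 6, which were those of Ogt, Taf1, Nono, Zmym3, Med12 and Snx12. A match is a description of letters and shows no binding.

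The pair is also alike in transcript sequence. One transcript of each (1991 bases for Gm4779 and 1940 for 8030474K03Rik) aligned in 2 blocks, with 88% identity over 883 bases and 78% over 460 bases. Of all 50-base words in the exons, 13.8% of those of 8030474K03Rik and 12.5% of those of Gm4779 were shared between the genes. How reads mapping to more than 1 place were counted is not given in the sources used here, so the division of reads between the pair is uncertain.

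The 8 adjacent genes all lie on the side of lower coordinates. Ogt is nearest, ending 110.2 kb from the middle of the pair, followed by Taf1 at 192.8 kb, Itgb1bp2 at 341.0 kb, Nono at 345.9 kb, Zmym3 at 373.7 kb, Nlgn3 at 468.6 kb, Med12 at 497.1 kb and Snx12 at 572.0 kb. With the pair they span 700.9 kb. Itgb1bp2 follows Nono on the same strand, 496 bases after its end.

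The libraries held 4370124 to 8359594 counts in DKO testes, 4597447 to 5243756 in those labelled Gm1142 KO and 4514237 to 5091624 in WT testes. Those labelled Gm1142 KO were set off from the rest. The first principal component held 37.2% of the variance, with scores of -34.0 to -21.6 in DKO, 43.7 to 67.5 in Gm1142 KO and -30.7 to -25.2 in WT. Mitochondrially encoded genes took 29.9% ± 2.89 of counts in DKO, 35.6% ± 3.22 in Gm1142 KO and 30.7% ± 1.73 in WT (SD, n = 3 each). All 10 Sertoli cell and all 10 germ cell markers were detected in every group. Summed germ cell markers had 648 to 790 CPM (counts relative to library size, which was scaled by TMM) in DKO, 335 to 433 in Gm1142 KO and 409 to 483 in WT. Dazl weighed most in this sum, with means of 348 CPM in DKO, 124 in Gm1142 KO and 195 in WT. Of the 9 germ cell markers tested, 2 (Dazl and Uchl1) were higher in DKO against WT, where 0.0927% of all tested genes had an adjusted p under 0.05. In Gm1142 KO against WT 1 rose (Uchl1) and 1 fell (Dazl). In DKO against Gm1142 KO 6 were higher and none lower, where 19.1% of all tested genes had an adjusted p under 0.05. Summed Leydig cell markers had 436 to 638 CPM in DKO, 258 to 358 in Gm1142 KO and 502 to 746 in WT. Of 5 tested, none changed in DKO against WT at an adjusted p under 0.05. In Gm1142 KO against WT 3 of them fell, and in DKO against Gm1142 KO 3 were higher. Epididymis and duct markers summed to 30.7 to 57.4 CPM in DKO, 68.0 to 84.6 in Gm1142 KO and 73.1 to 95.6 in WT, and red blood cell markers to 62.4 to 82.7 CPM in DKO, 95.2 to 136 in Gm1142 KO and 68.7 to 82.9 in WT. Sertoli cell markers summed to 1038 to 1174 CPM in DKO, 1135 to 1217 in Gm1142 KO and 1145 to 1212 in WT. Of these 10, 1 rose and 3 fell in Gm1142 KO against WT, a comparison in which 18.5% of all tested genes had an adjusted p under 0.05. The part of these differences in the results was not tested, and in bulk tissue fewer cells of a type and less RNA per cell cannot be told apart.

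The targeted pair was read first, as the check of the labels. Gm1142, counted as 8030474K03Rik, had 0, 0 and 0 counts in DKO libraries, 65, 46 and 50 in those labelled Gm1142 KO and 56, 50 and 41 in WT. Gm4779 had 0, 0 and 0 counts in DKO libraries, 88, 61 and 59 in those labelled Gm1142 KO and 42, 48 and 53 in WT. Neither gene had a single count in DKO, whereas the libraries labelled Gm1142 KO had no fewer counts of Gm1142 than WT.

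In DKO testes both genes fell below what the depth could detect. A floor of 3 counts over the DKO group is 0.162 CPM. Against it, 8030474K03Rik was at least 60.5-fold lower in DKO than in WT, where it averaged 9.80 ± 0.946 CPM (SD, n = 3), and Gm4779 was at least 59.5-fold lower than its 9.64 ± 1.69 CPM in WT. Both passed edgeR's quasi-likelihood test, with an adjusted p of 9.82e-07 each. These were 2 of the 16 genes with an adjusted p under 0.05 in DKO against WT, a comparison in which 0.0927% of tested genes passed (0.0464% higher and 0.0464% lower). Against the libraries labelled Gm1142 KO, 8030474K03Rik was at least 72.0-fold lower in DKO and Gm4779 at least 93.1-fold lower. Floors and intervals cover counting error only.

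In the libraries labelled Gm1142 KO, Gm1142 averaged 11.7 ± 0.988 CPM, against 9.80 ± 0.946 CPM in WT (SD, n = 3 each). On the log2 scale it was higher by 0.25 (SE 0.30, adjusted p = 0.624 by edgeR), and the groups overlapped. A count over the whole gene cannot show a short deletion or a shifted reading frame, so these counts do not settle what the label means. Gm4779 had 17.1, 15.6 and 12.6 CPM in these libraries, against 8.04, 9.46 and 11.4 CPM in WT. Every Gm1142 KO value was above every WT value, but at a log2 fold change of 0.65 (SE 0.30) the adjusted p by edgeR was 0.146.

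The division of the pair's reads overlapped between the groups. Of the pair's counts, 8030474K03Rik held 42.5% (exact 95% interval 34.5 to 50.7), 43.0% (33.5 to 52.9) and 45.9% (36.3 to 55.7) in the libraries labelled Gm1142 KO. In WT it held 57.1% (46.8 to 67.1), 51.0% (40.7 to 61.3) and 43.6% (33.4 to 54.2). The means were 43.8% ± 1.83 in Gm1142 KO and 50.6% ± 6.77 in WT (SD, n = 3 each), a difference of -6.81 percentage points (exact two-sided permutation test, p = 0.2). The difference was -3.54 points without WT replicate 1 and -10.3 points without WT replicate 3. Summed over the pair, the level was 29.7, 27.4 and 23.2 CPM in Gm1142 KO, against 18.8, 19.3 and 20.2 CPM in WT. All 3 sums in Gm1142 KO were higher, by 1.38-fold on average, and the exact two-sided permutation p of 0.1 is the smallest that 3 against 3 allows.

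**Figure D1:**
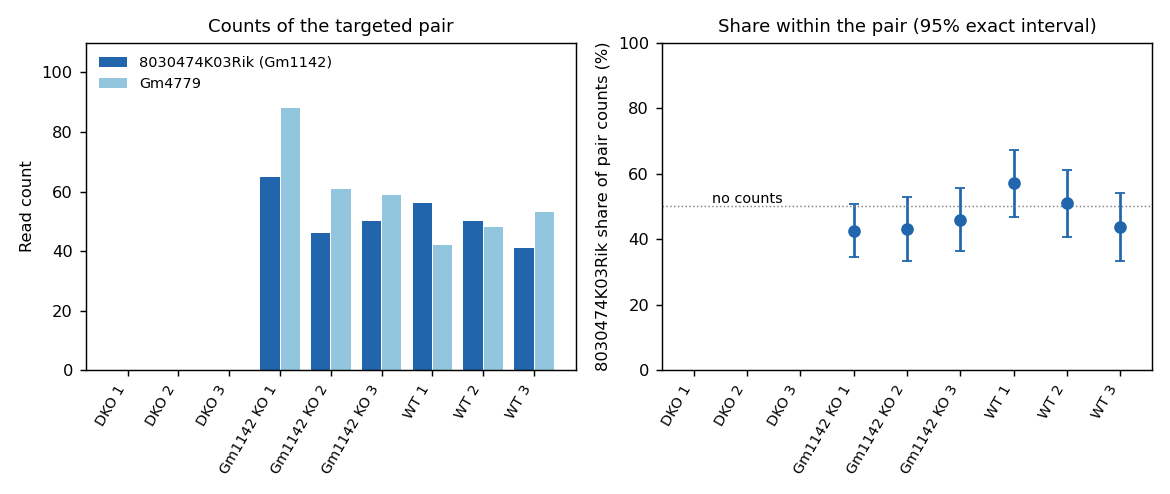
Left, read counts of 8030474K03Rik (Gm1142, dark bars) and Gm4779 (light bars) in each of the 9 libraries. Right, the percentage of the pair's counts that came from 8030474K03Rik, with exact 95% binomial intervals and a dotted line at equal division. DKO libraries have no counts of either gene, and the Gm1142 KO and WT libraries have 41 to 65 counts of 8030474K03Rik with overlapping shares.

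Levels of the adjacent genes were compared per kilobase of exon, in CPM per kb averaged over 3 libraries. Sequence shared with other annotated genes was not taken out of the exon lengths. It is largest for Nlgn3, with 40.9% of its 50-base words, so the place of such genes in the order is uncertain. In WT, Ogt was highest at 143.1, followed by Nono at 64.2, Zmym3 at 28.4, Med12 at 10.6 and Taf1 at 8.15, with no overlap between neighbours in this order. Snx12 at 5.53, 8030474K03Rik at 4.89, Gm4779 at 4.08 and Nlgn3 at 3.43 overlapped from each to the next, and Itgb1bp2 was lowest at 2.14. Ogt thus stood at the 99.6th percentile of tested genes in WT and Itgb1bp2 at the 27.7th. In DKO the order was the same for Ogt, Nono and Zmym3, at 121.8, 57.1 and 27.8, while Taf1 at 10.7 overlapped Med12 at 10.3. In the libraries labelled Gm1142 KO, Itgb1bp2 reached 7.19 CPM per kb and the 63.6th percentile, and overlapped Taf1 at 7.36 and Gm4779 at 6.38.

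In DKO against WT none of the 8 adjacent genes passed the test, although 4 of 8 had groups that did not overlap, as did 15.9% of all tested genes. Their log2 fold changes ran from -0.45 to 0.40 with a median of -0.11, against 0.02 over all genes. By edgeR 3 of the 8, Taf1, Ogt and Nlgn3, had an unadjusted p under 0.05, as did 1544 of all 17251 tested genes. DESeq2 and limma-voom likewise each called 0 of the 8 and gave 3. That count of 3 fell to 0 without DKO replicate 2 and to 0 without WT replicate 1. It was 1 without WT replicate 3 and 1 with a block for the replicate number. None of the 8 passed in any of these fits.

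In the libraries labelled Gm1142 KO against WT, 3 of the 8 passed: Itgb1bp2 and Med12 were higher and Zmym3 was lower. Across all tested genes 18.5% passed (10.2% higher and 8.38% lower). Groups did not overlap for 4 of the 8, against 35.9% of all genes. The median log2 fold change of the 8 was 0.04, against -0.01 over all genes. In DKO against the libraries labelled Gm1142 KO, 4 of the 8 passed, Taf1 and Zmym3 being higher and Itgb1bp2 and Med12 lower, where 19.1% of all genes passed (9.07% higher and 10.1% lower). There the groups did not overlap for 6 of the 8, against 33.4% of all genes, and the median was -0.10, against 0.03 over all genes. These last 2 comparisons share the libraries labelled Gm1142 KO, so they are not independent of each other. With 1 library left out, 1 to 3 of the 8 passed in Gm1142 KO against WT, with 1 (Itgb1bp2) left without WT replicate 3. In DKO against Gm1142 KO 2 to 6 passed, with 2 left without Gm1142 KO replicate 2.

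**Figure D2:**
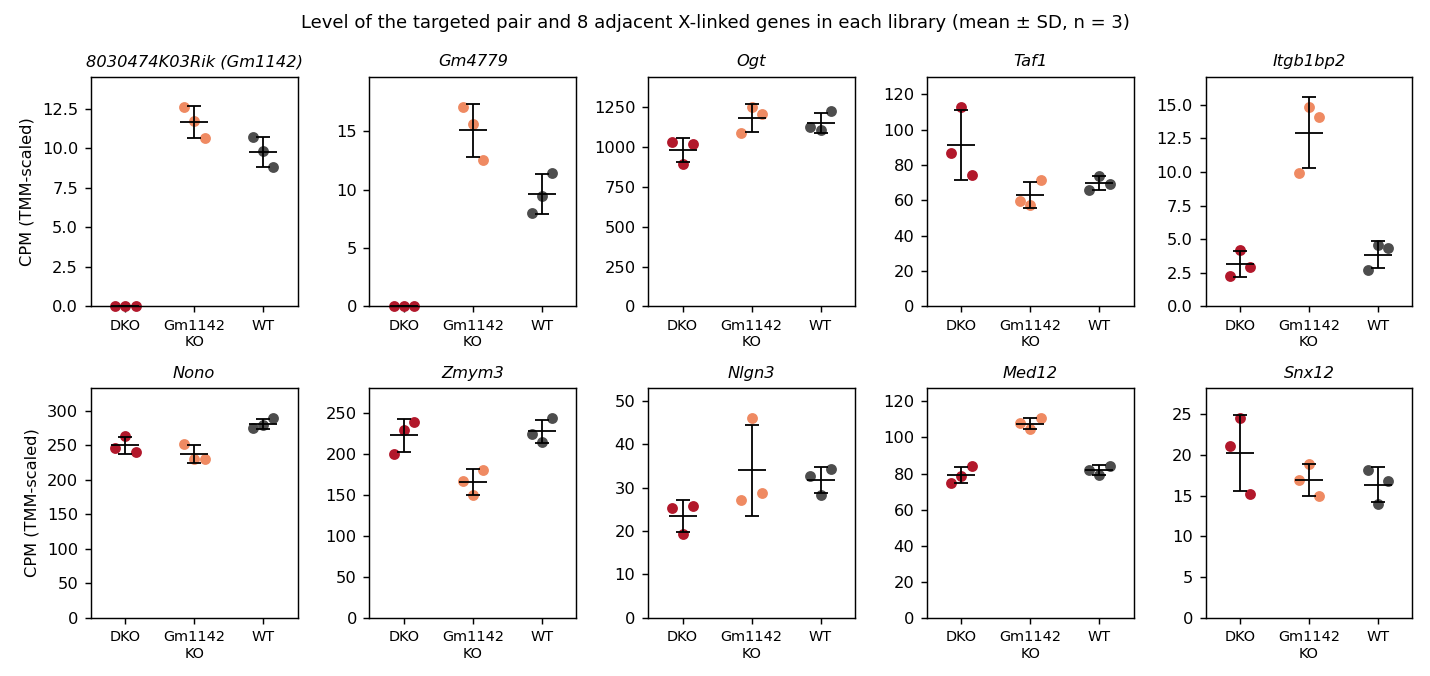
Level in CPM (y axis, from 0, scaled per gene) of the 10 genes in each library of the DKO, Gm1142 KO and WT groups; bars give the mean ± SD (n = 3). The Itgb1bp2 values of the libraries labelled Gm1142 KO, 9.91 to 14.8 CPM, lie above all others, their Med12 values are also highest and their Zmym3 values lowest, and the pair is at 0 in DKO.

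Ogt encodes the enzyme that adds O-GlcNAc to serine and threonine residues of nuclear and cytosolic proteins. It is the nearest of the 8 to the pair and the most abundant. Ogt had 1031, 891 and 1017 CPM in DKO, 1085, 1250 and 1208 CPM in Gm1142 KO and 1126, 1104 and 1224 CPM in WT. The 3 DKO values were below all 6 others, and the other groups overlapped. Its log2 fold change was -0.23 (SE 0.10, adjusted p = 0.524 by edgeR) in DKO against WT and -0.27 (SE 0.10, adjusted p = 0.0747) in DKO against Gm1142 KO. The second passed with DESeq2 (adjusted p = 0.0455), with limma-voom (0.0300), without mitochondrial genes (0.0487) and without Gm1142 KO replicate 1 (0.0361), within a range of 0.0300 to 0.255 over 14 alternatives. In Gm1142 KO against WT it was 0.04.

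Of 7 tested genes of O-GlcNAc cycling and UDP-GlcNAc synthesis, none passed in DKO against WT, 1 rose and 1 fell in Gm1142 KO against WT, and 1 fell in DKO against Gm1142 KO. Here and for each list below, the shares of all tested genes that passed were 0.0927%, 18.5% and 19.1% in these 3 comparisons. The gene that rose was Mgea5, now called Oga, which encodes the enzyme that removes O-GlcNAc. Mgea5 averaged 210.1 ± 2.37 CPM in DKO, 349 ± 14.6 CPM in Gm1142 KO and 199 ± 10.7 CPM in WT (SD, n = 3 each). Its log2 fold change was 0.81 (SE 0.11, adjusted p = 2.55e-05 by edgeR) in Gm1142 KO against WT and -0.73 (SE 0.11, adjusted p = 8.67e-05) in DKO against Gm1142 KO, and it passed in all 14 alternatives of each. Gfpt1, which makes the first dedicated intermediate of UDP-GlcNAc, fell by 0.51 in Gm1142 KO against WT (adjusted p = 0.0428 by edgeR), a call lost in 5 of 14 alternatives (adjusted p up to 0.174), among them those without Gm1142 KO replicate 2 or 3 or WT replicate 1 or 2. Hcfc1, a chromatin cofactor that Ogt modifies and cleaves, had the smallest p of this list in DKO against WT, with a log2 fold change of 0.31 (adjusted p = 0.573 by edgeR).

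Taf1 encodes the largest subunit of TFIID, the factor that recognises core promoters. Taf1 had 86.9, 113 and 74.5 CPM in DKO, 59.8, 57.5 and 71.6 CPM in Gm1142 KO and 65.9, 73.7 and 69.6 CPM in WT. DKO values were above all others, with replicate 2 far above and replicate 3 close to the highest WT value. The log2 fold change was 0.54 (SE 0.15, adjusted p = 0.0170 by edgeR) in DKO against Gm1142 KO, 0.40 (SE 0.15, adjusted p = 0.450) in DKO against WT and -0.15 (SE 0.16, adjusted p = 0.571) in Gm1142 KO against WT. The call between the knockouts was lost without DKO replicate 2 (0.37, adjusted p = 0.120) and without Gm1142 KO replicate 2 (adjusted p = 0.0586).

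Of 16 tested TFIID subunits, none passed in DKO against WT, 2 rose in Gm1142 KO against WT (Tbp and Taf2), and 1 was higher (Taf9b) and 1 lower (Tbp) in DKO against Gm1142 KO. Tbp, the subunit that binds the TATA box, averaged 112 ± 6.44 CPM in DKO, 164 ± 29.5 CPM in Gm1142 KO and 123.5 ± 6.15 CPM in WT. Its log2 fold change was 0.40 in Gm1142 KO against WT (adjusted p = 0.0402 by edgeR) and -0.55 in DKO against Gm1142 KO (adjusted p = 0.00693). The first call was lost in 6 of 14 alternatives (adjusted p up to 0.189), with any 1 library left out other than Gm1142 KO replicate 1 among them, and the second in none. Taf2 rose by 0.49 in Gm1142 KO against WT (adjusted p = 0.0104 by edgeR) and Taf9b by 0.78 in DKO against Gm1142 KO (adjusted p = 0.00970), calls that were lost without WT replicate 1 (0.0582) and without DKO replicate 2 (0.0659). The smallest p in DKO against WT belonged to Taf7l, a germ-cell relative of Taf7 that is X-linked too. Taf7l averaged 106 ± 12.7 CPM in DKO, 79.2 ± 13.5 CPM in Gm1142 KO and 65.4 ± 8.40 CPM in WT. Its log2 fold change of 0.69 in DKO against WT (adjusted p = 0.0932 by edgeR) passed with DESeq2 (0.0174), in a fit of the compared groups alone (0.0425) and with no filter (0.00321). Summed germ cell markers were also higher in DKO than in WT, as given above, and their part in this value was not tested.

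Nono encodes an RNA-binding protein that builds paraspeckles together with Sfpq and Pspc1. Nono had 246, 264 and 240.1 CPM in DKO, 252, 231 and 230.1 CPM in Gm1142 KO and 275, 279 and 289 CPM in WT. All 6 knockout values were below the 3 WT values, but neither difference passed the test. On the log2 scale the difference was -0.17 (SE 0.11, adjusted p = 0.675 by edgeR) in DKO against WT and -0.24 (SE 0.11, adjusted p = 0.133) in Gm1142 KO against WT. It was 0.07 in DKO against Gm1142 KO. Of Nono's 50-base words, 15% occur in other annotated genes, chiefly Gm8806, so some of its reads could have been divided.

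Of 8 tested paraspeckle genes, none passed in DKO against WT, 2 rose and 1 fell in Gm1142 KO against WT, and 1 was higher and 2 lower in DKO against Gm1142 KO. The passing gene that went the other way from the other 2 is not reported here. Both partners of Nono rose in Gm1142 KO against WT and were lower in DKO against Gm1142 KO. Sfpq averaged 408 ± 14.0 CPM in DKO, 702 ± 31.6 CPM in Gm1142 KO and 412 ± 11.9 CPM in WT, and rose by 0.77 in Gm1142 KO against WT (SE 0.10, adjusted p = 2.43e-05 by edgeR). Pspc1 averaged 113 ± 9.22 CPM in DKO, 203 ± 13.0 CPM in Gm1142 KO and 94.8 ± 6.59 CPM in WT, and rose by 1.10 (SE 0.12, adjusted p = 3.40e-06 by edgeR). In DKO against Gm1142 KO the log2 fold changes were -0.78 for Sfpq and -0.85 for Pspc1, and both genes passed in every one of 14 alternatives in both comparisons.

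Itgb1bp2 encodes melusin, a CHORD-domain protein of striated muscle that binds the integrin β1 tail. It had the largest change of the 8. Itgb1bp2 had 12, 37 and 13 counts in DKO, 51, 58 and 66 in Gm1142 KO and 14, 23 and 20 in WT. That is 2.30, 4.17 and 2.94 CPM in DKO, 9.91, 14.8 and 14.1 CPM in Gm1142 KO and 2.68, 4.53 and 4.31 CPM in WT. The libraries labelled Gm1142 KO were above all 6 others, and DKO and WT overlapped.

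Itgb1bp2 thus averaged 12.9 ± 2.65 CPM in Gm1142 KO, against 3.84 ± 1.01 CPM in WT (SD, n = 3 each), 3.35-fold higher, with a log2 fold change of 1.74 (SE 0.36, adjusted p = 0.00170 by edgeR). In DKO it averaged 3.14 ± 0.954 CPM, a log2 fold change of -2.0 against Gm1142 KO (SE 0.36, adjusted p = 5.61e-04 by edgeR) and -0.25 against WT (SE 0.38, adjusted p = 0.894). Both calls held in all 14 alternatives, with ranges of 1.54 to 1.91 and -2.28 to -1.83. Set against the gene before it on the same strand, Itgb1bp2 had 0.932, 1.58 and 1.23 counts per 100 Nono counts in DKO, 3.93, 6.43 and 6.11 in Gm1142 KO and 0.975, 1.62 and 1.49 in WT. The lowest Gm1142 KO ratio was above all 6 others. None of its 50-base words occurred in another annotated gene.

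Because Itgb1bp2 is a muscle gene, skeletal muscle markers stand beside it. All 5 (Acta1, Ckm, Myh3, Mylpf and Ttn) had counts in every group. Ckm averaged 0.131 CPM in WT and 0.171 CPM in Gm1142 KO, below the floors of 0.201 and 0.218 CPM for 3 counts in those groups. The sum of the 5 was 24.8 to 37.4 CPM in DKO, 18.5 to 34.8 CPM in Gm1142 KO and 14.9 to 26.2 CPM in WT. Of 4 tested, 1 rose in Gm1142 KO against WT, the sarcomere gene Ttn, with 13.3 ± 2.81 CPM in Gm1142 KO, 4.24 ± 2.30 CPM in WT and a log2 fold change of 1.64 (adjusted p = 0.00259 by edgeR). Muscle actin Acta1 averaged 1.24 CPM in Gm1142 KO and 1.77 CPM in WT, a log2 fold change of -0.49 (adjusted p = 0.758 by edgeR). The part of muscle RNA in the Itgb1bp2 result was not tested.

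Of 6 tested CHORD-domain and integrin adaptor genes, none passed in DKO against WT, 1 fell in Gm1142 KO against WT and the same 1 was higher in DKO against Gm1142 KO. It was Chordc1, the other mammalian CHORD-domain gene, whose product works with HSP90. Chordc1 averaged 269.5 ± 15.3 CPM in DKO, 196 ± 39.7 CPM in Gm1142 KO and 335 ± 26.9 CPM in WT. Chordc1 changed on the log2 scale by -0.77 in Gm1142 KO against WT (SE 0.13, adjusted p = 3.48e-04 by edgeR) and 0.46 in DKO against Gm1142 KO (SE 0.13, adjusted p = 0.0188), the second being lost without DKO replicate 3 and without Gm1142 KO replicate 1 or 3 (adjusted p up to 0.113).

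Zmym3 encodes a zinc finger protein found with LSD1-CoREST type chromatin complexes. Zmym3 had 200.5, 229 and 239 CPM in DKO, 167, 150.1 and 181 CPM in Gm1142 KO and 224, 215 and 244 CPM in WT. All 3 Gm1142 KO values were below the other 6, and DKO and WT overlapped. For Zmym3 the log2 fold change was -0.46 (SE 0.12, adjusted p = 0.0107 by edgeR) in Gm1142 KO against WT, 0.43 (SE 0.12, adjusted p = 0.0159) in DKO against Gm1142 KO and -0.03 in DKO against WT. The first was lost without WT replicate 3 (adjusted p = 0.0601), and the second without DKO replicate 3 (0.0548) and without Gm1142 KO replicate 2 (0.0642).

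Of 11 tested genes of the ZMYM family and the LSD1-CoREST complex, none passed in DKO against WT, 3 rose and 1 fell in Gm1142 KO against WT, and 1 was higher and 1 lower in DKO against Gm1142 KO. Rcor3, a CoREST corepressor, averaged 73.1 ± 10.1 CPM in DKO, 118 ± 10.1 CPM in Gm1142 KO and 79.1 ± 10.8 CPM in WT. Rcor3 changed by 0.58 on the log2 scale in Gm1142 KO against WT (adjusted p = 0.00719 by edgeR, lost at 0.0523 without WT replicate 3) and -0.69 in DKO against Gm1142 KO (adjusted p = 0.00185, kept in all 14 alternatives). Kdm1a, the demethylase LSD1 itself, rose by 0.53 in Gm1142 KO against WT (adjusted p = 0.00652 by edgeR) and Hdac1, a histone deacetylase, by 0.38 (adjusted p = 0.0357). Phf21a, a histone reader of the complex, fell by 0.52 in Gm1142 KO against WT (adjusted p = 0.0247 by edgeR) and was 0.45 higher in DKO against Gm1142 KO (adjusted p = 0.0487). The Kdm1a call was lost without Gm1142 KO replicate 3 (0.0551). The first Phf21a call was lost without Gm1142 KO replicate 2 or 3 or WT replicate 1 or 2 (up to 0.122), and the second in 12 of 14 alternatives (up to 0.169), kept with the stricter filter and without Gm1142 KO replicate 1. The Hdac1 call was lost in 7 of 14 (up to 0.169), including whichever Gm1142 KO library was left out and without WT replicate 1 or 2.

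Med12 encodes the subunit that activates the cyclin-dependent kinase of the Mediator kinase module. Med12 had 75.0, 78.6 and 84.0 CPM in DKO, 108, 105 and 111 CPM in Gm1142 KO and 82.1, 79.2 and 84.4 CPM in WT. The libraries labelled Gm1142 KO were above all 6 others, and DKO and WT overlapped. For Med12 the log2 fold change was 0.40 (SE 0.12, adjusted p = 0.0279 by edgeR) in Gm1142 KO against WT, -0.44 (SE 0.12, adjusted p = 0.0140) in DKO against Gm1142 KO and -0.05 in DKO against WT. The first was lost with no filter on low counts (0.0884) and without Gm1142 KO replicate 1 (0.0575) or 3 (0.108) or without WT replicate 1 (0.0906), 2 (0.107) or 3 (0.0662). The second was lost without DKO replicate 1 (0.0517) and without Gm1142 KO replicate 3 (0.0565).

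Of 6 tested genes of the kinase module, none passed in DKO against WT, 1 rose and 1 fell in Gm1142 KO against WT, and 2 were higher and 1 lower in DKO against Gm1142 KO. Ccnc, the cyclin of the module, averaged 28.9 ± 4.03 CPM in DKO, 46.6 ± 3.98 CPM in Gm1142 KO and 28.2 ± 3.51 CPM in WT. Its log2 fold change was 0.72 in Gm1142 KO against WT (SE 0.17, adjusted p = 0.00526 by edgeR) and -0.68 in DKO against Gm1142 KO (SE 0.17, adjusted p = 0.00811), and both calls held in all 14 alternatives. Med13, which links the module to the rest of Mediator, fell by 0.52 in Gm1142 KO against WT (adjusted p = 0.0449 by edgeR) and was 0.62 higher in DKO against Gm1142 KO (adjusted p = 0.0173). The kinase gene Cdk19 was 0.77 higher in DKO against Gm1142 KO (adjusted p = 0.0120 by edgeR). The first Med13 call was lost with limma-voom and without Gm1142 KO replicate 2 or 3 or WT replicate 1 or 2 (up to 0.249). The second was lost without DKO replicate 2 or Gm1142 KO replicate 2 or 3 (up to 0.0978), and the Cdk19 call without DKO replicate 1 or 2 or Gm1142 KO replicate 2 (up to 0.0595).

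Nlgn3 encodes neuroligin 3, a postsynaptic adhesion protein that binds neurexins. Nlgn3 had 25.3, 19.3 and 25.8 CPM in DKO, 27.2, 46.0 and 28.8 CPM in Gm1142 KO and 32.7, 28.4 and 34.2 CPM in WT. DKO values were below all others, and Gm1142 KO replicate 2 was far above the other 8 libraries. The log2 fold change was -0.45 (SE 0.21, adjusted p = 0.548 by edgeR) in DKO against WT, -0.54 (SE 0.21, adjusted p = 0.0781) in DKO against Gm1142 KO and 0.09 in Gm1142 KO against WT. With 1 library left out the second ranged from -0.68 (adjusted p = 0.0391, without Gm1142 KO replicate 1, the only such fit that passed) to -0.27 (adjusted p = 0.423, without Gm1142 KO replicate 2). In the annotation, exons of the readthrough gene Gm21986 overlap both Med12 and Nlgn3, with 8.84% of the 50-base words of Med12 and 40.3% of those of Nlgn3, and Gm21986 held 2 counts in all 9 libraries together. Of 6 tested neuroligin, neurexin and scaffold genes, none passed in DKO against WT or in DKO against Gm1142 KO, and 1 fell in Gm1142 KO against WT, the postsynaptic scaffold gene Dlg4 (-0.48, adjusted p = 0.0298 by edgeR, lost without replicate 1 or 3 of Gm1142 KO or of WT, at up to 0.137).

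Snx12 encodes an endosomal sorting nexin. It had 21.1, 24.5 and 15.2 CPM in DKO, 16.9, 18.9 and 14.9 CPM in Gm1142 KO and 18.2, 14.0 and 16.8 CPM in WT. All 3 groups overlapped, and no comparison passed: the log2 fold change was 0.32 in DKO against WT (SE 0.22, adjusted p = 0.707 by edgeR), 0.05 in Gm1142 KO against WT and 0.28 in DKO against Gm1142 KO. Of 9 tested sorting nexin and retromer genes, none passed in DKO against WT, 1 rose and 1 fell in Gm1142 KO against WT, and 2 were higher and 1 lower in DKO against Gm1142 KO. Vps26a, a retromer subunit, averaged 59.1 ± 9.33 CPM in DKO, 86.5 ± 2.60 CPM in Gm1142 KO and 44.8 ± 5.27 CPM in WT, and rose by 0.95 in Gm1142 KO against WT (SE 0.15, adjusted p = 1.48e-04 by edgeR). Snx1, a sorting nexin that works with retromer, averaged 54.8 ± 7.39 CPM in DKO, 36.0 ± 6.06 CPM in Gm1142 KO and 65.0 ± 6.50 CPM in WT, and changed by -0.85 (SE 0.16, adjusted p = 9.85e-04 by edgeR). Both held in all 14 alternatives of that comparison. In DKO against Gm1142 KO, Vps26a changed by -0.54, Snx1 by 0.60 and Snx27 by 0.71, and all 3 passed. The Vps26a call was lost without DKO replicate 3 (0.0507), the Snx1 call without DKO replicate 2 or Gm1142 KO replicate 3 (up to 0.0825) and the Snx27 call without DKO replicate 2 (0.0810).

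Over the 8 partner lists, 69 of 71 genes were tested. In DKO against WT none passed with edgeR, and DESeq2 called 1 and limma-voom 0. By edgeR 5 of the 69 had an unadjusted p under 0.05, beside 1544 of all 17251 tested genes. The count of 5 was 7 with DESeq2, 9 with limma-voom and 11 with no filter. With 1 library left out it was 4 to 10, of which 10 without DKO replicate 3 and 8 without WT replicate 1. The number over all tested genes also differed between these settings. In Gm1142 KO against WT 10 rose and 7 fell, and in DKO against Gm1142 KO 8 were higher and 7 lower. Those are 17 and 15 of 69, beside 18.5% and 19.1% of all tested genes. The median log2 fold changes were 0.06, 0.00 and 0.06 in the 3 comparisons. Leaving out 1 library moved the 17 to between 10 and 17, with the 10 reached without Gm1142 KO replicate 3 and without WT replicate 1, and the 15 to between 9 and 16, with the 9 reached without DKO replicate 2.

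**Figure D3:**
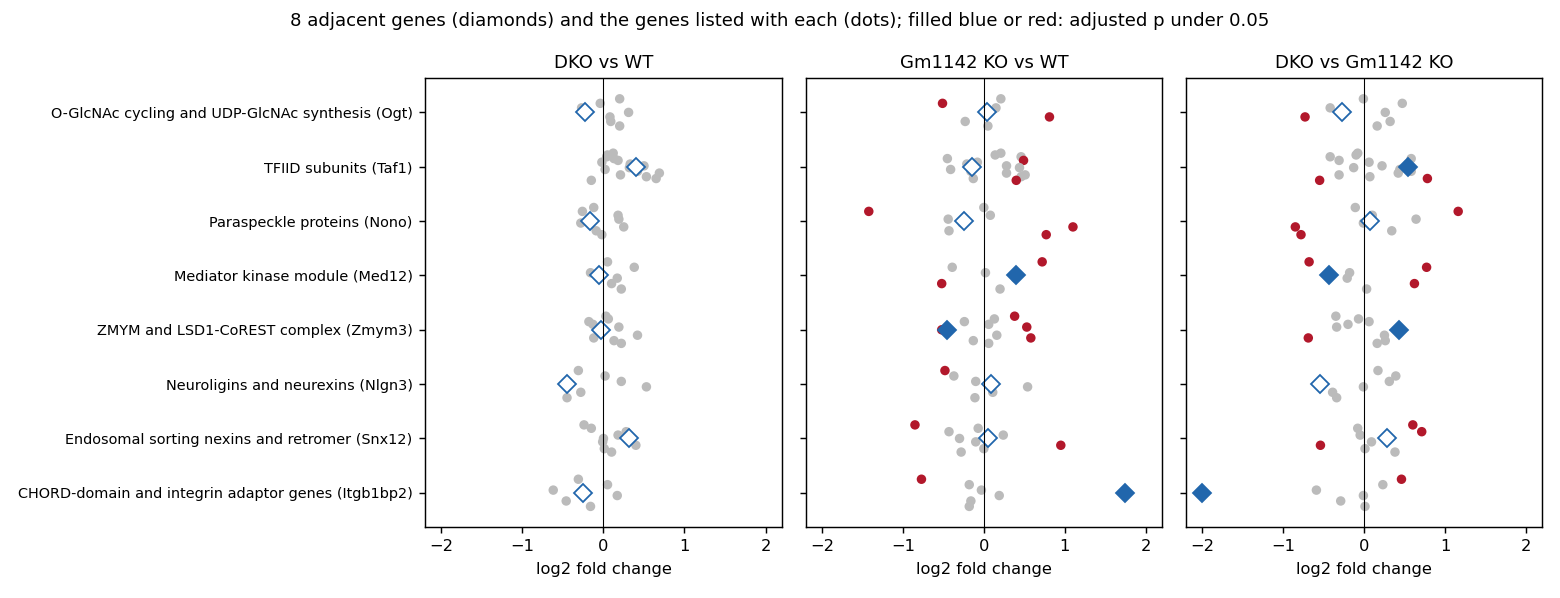
The log2 fold change (x axis) of each adjacent gene (diamonds) and of the genes listed with it (dots, 1 row per list) in the 3 comparisons; filled blue diamonds and red dots have an adjusted p under 0.05. None is filled in DKO against WT, and Itgb1bp2 lies farthest from 0 in the other panels, at 1.74 and -2.0.

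Within 1 Mb on either side of the pair the table holds 49 other genes, of which 12 were tested. None passed in DKO against WT with edgeR, DESeq2 or limma-voom, and 1 had an unadjusted p under 0.05 with each. In Gm1142 KO against WT, Cited1, a transcriptional coactivator gene, fell by 0.54 (SE 0.15, adjusted p = 0.0157 by edgeR) and Phka1, a phosphorylase kinase subunit gene, by 0.71 (SE 0.19, adjusted p = 0.0120). In DKO against Gm1142 KO, Tex11, a meiotic gene of germ cells, was higher by 0.82 (SE 0.25, adjusted p = 0.0270 by edgeR) and Phka1 by 0.59 (SE 0.19, adjusted p = 0.0334). The Cited1 call was lost without Gm1142 KO replicate 3 or WT replicate 3 (up to 0.0956), the first Phka1 call without WT replicate 1 (0.112) and the Tex11 call without DKO replicate 2 or Gm1142 KO replicate 2 (up to 0.174). The second Phka1 call was lost without DKO replicate 2 or 3 or Gm1142 KO replicate 1 or 2 (up to 0.117). The nearest tested gene on the side away from Ogt was Nhsl2, at 54.8 kb, and its log2 fold changes of 0.05 in DKO against WT, -0.22 in Gm1142 KO against WT and 0.27 in DKO against Gm1142 KO did not pass. Among all 603 tested X-linked genes, the pair made up the 2 that passed in DKO against WT (0.332%), and 16.9% passed in Gm1142 KO against WT and 19.9% in DKO against Gm1142 KO.

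**Figure D4:**
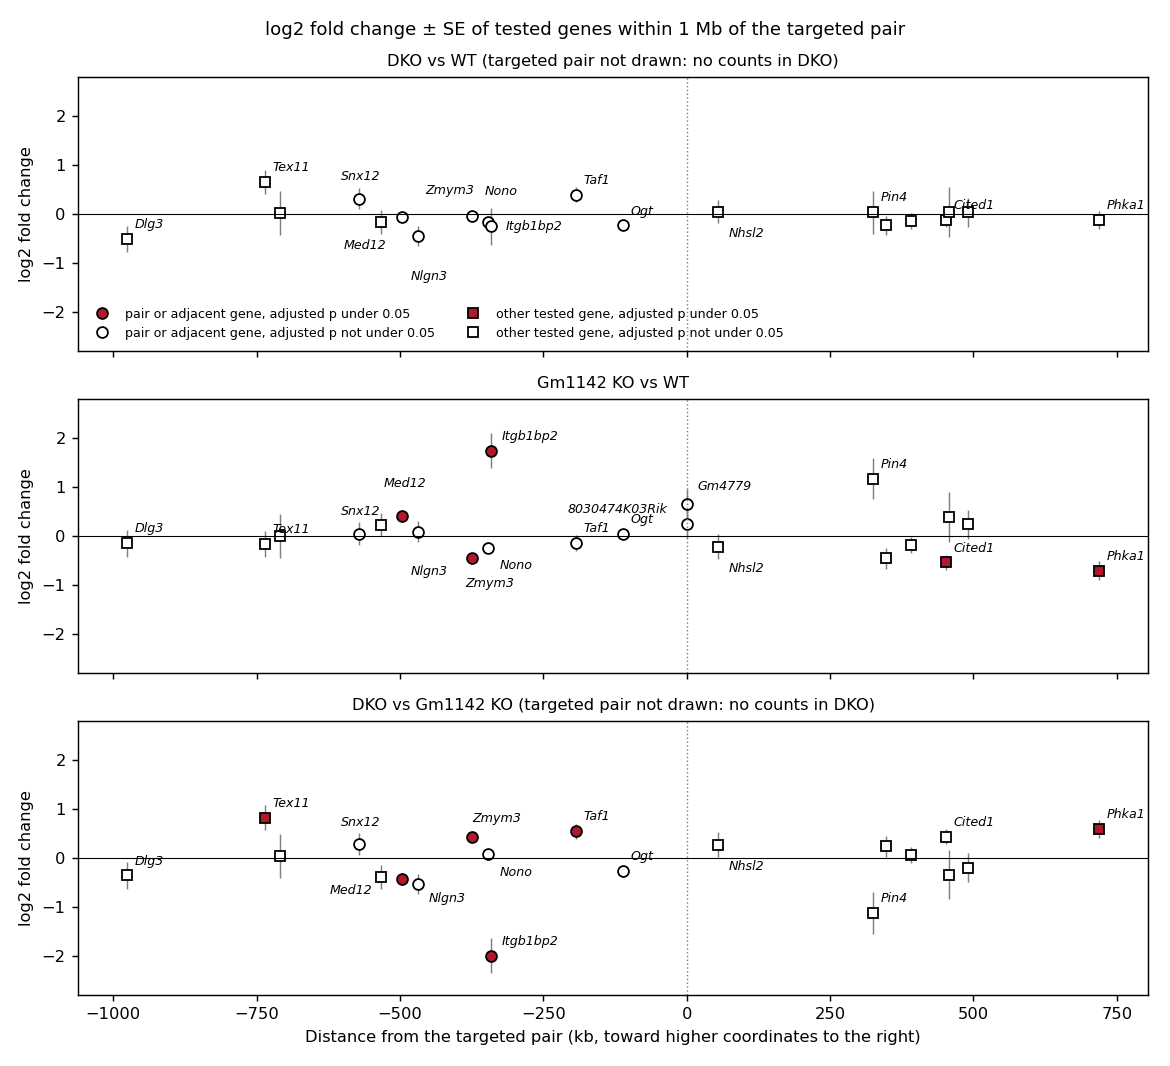
The log2 fold change ± SE (y axis) of every tested gene within 1 Mb of the targeted pair against its distance from the pair in kb (x axis), in the 3 comparisons; circles are the pair and the adjacent genes, squares are other genes, and filled symbols have an adjusted p under 0.05. The pair passes in both comparisons with DKO but is not drawn there, because it has no counts in DKO. No other gene passes in DKO against WT, and the filled symbols drawn in the other panels lie 192.8 kb or more from the pair.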

How the data were processed

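Raw read counts per gene were deposited by the authors as 1 table with a column for each of 9 libraries. Adapters, alignment and counting involved cutadapt, Bowtie2, STAR and featureCounts on mm39, per the submitters' processing notes, which give no versions or order. Annotation, strandedness and the handling of multi-mapping reads are not given in the sources used here.

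Genes were matched by Ensembl identifier, and 52073 of 56691 had a symbol. Counts were analysed with edgeR 4.0.16 in R 4.3.3. Genes passing the filter by group (minimum count 10, minimum total 15) numbered 17251. Library sizes were scaled by TMM (factors 0.856 to 1.07), 1 quasi-likelihood model with a term per group was fitted to all 9 libraries, and Benjamini-Hochberg adjustment ran over all tested genes. An adjusted p under 0.05 is a pass. CPM values use the scaled sizes. A floor is 3 counts over the group, and intervals are exact binomial (95%). Reads carry no molecular identifiers, so floors and intervals cover counting error only. The edgeR step was tested on simulated counts.

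Alternatives were DESeq2's size factors, no filter, a stricter filter (100 counts overall and 1 CPM in at least 3 libraries), limma-voom (limma 3.58.1), DESeq2 1.42.0, a block for the replicate number, a fit restricted to the groups compared, removal of mitochondrial genes, and leaving out each library. Positions and exons come from GENCODE M21 (GRCm38), the promoter sequences from RefSeq (GRCm38.p6), and transcripts were aligned with blastn 2.17.0.

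The 10 genes and the lists were chosen with earlier results of these data known. Named genes are those 10, up to 4 passing genes of each partner list or else the 1 with the smallest p, passing genes within 1 Mb and the nearest tested on each side, and the 3 genes most like each targeted gene. The text prints all but some that did not pass and 1 that is not reported here.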

Additional observations from a re-analysis of the deposited data

How the results depend on the processing

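The number of genes that passed in DKO against WT was 16, and it was 110 with no filter, 68 with DESeq2, 28 in a fit of the compared groups alone and 9 to 32 with 1 library left out. In Gm1142 KO against WT it was 3196, and 2037 to 3015 with 1 library left out, the lowest without WT replicate 1. In DKO against Gm1142 KO it was 3301, and 2128 to 3219, the lowest without DKO replicate 2. The summed level of the pair differed by 7.33 CPM between Gm1142 KO and WT, and by 4.85 CPM on total counts without a scaling factor. Deviations from the group means correlated at -0.267 to 0.101 between same-numbered libraries and at -0.188 to 0.163 between the others. Between Gm1142 KO and WT, same-numbered libraries had 0.037 to 0.083 and the others -0.077 to -0.002. With 3 libraries per group these values cannot exclude that the numbers mark a pairing, and the labels name none. With the replicate number as a block 16, 2921 and 2965 genes passed in DKO against WT, Gm1142 KO against WT and DKO against Gm1142 KO. Differences that did not pass and changed sign with 1 library left out were those of Zmym3 in DKO against WT (-0.10 to 0.03; 0.03 without DKO replicate 1 and 0.02 without WT replicate 3), of Snx12 (-0.06 to 0.13; -0.04 without Gm1142 KO replicate 2 and -0.06 without WT replicate 2), Nlgn3 (-0.19 to 0.23) and Ogt (-0.01 to 0.09) in Gm1142 KO against WT, the last pair without Gm1142 KO replicate 2, and of Nhsl2 in DKO against WT (-0.09 to 0.18; -0.09 without DKO replicate 2 and without WT replicate 2). The causes were not tested. No scaling moved the median of all genes by over 0.1.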

Other observations

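The profiles of the targeted genes were compared with those of all tested genes, as the mean absolute difference of gene-centred log2 CPM over the 9 libraries (prior count 2). The pair was most alike to each other, at 0.22, against a median over all genes of 2.17 for 8030474K03Rik and 2.24 for Gm4779. Both genes were targeted in DKO and neither had a count there, so this comparison could hardly have placed them apart. Next was Odf3b, an autosomal gene on chromosome 15, at 0.97 from 8030474K03Rik and 1.01 from Gm4779. Odf3b had 0, 0 and 0 counts in DKO, 14, 32 and 6 in Gm1142 KO and 12, 26 and 8 in WT. It was without a count in all 3 DKO libraries and varied widely within the other groups. As it was picked for this pattern, its values are a description. Gm44027, at 1.25 and 1.30, had 2, 11 and 0 counts in DKO, 28, 28 and 25 in Gm1142 KO and 6, 6 and 9 in WT. The third for 8030474K03Rik was Slc17a4, at 1.27, and the third for Gm4779 was Gm43421, at 1.30. These distances rest mostly on low counts in DKO and depend on the prior count.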
